A study of Mus musculus with 6 samples.

Results

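The transcripts described here encode 5 enzymes that act after the acyl-CoA oxidases in peroxisomes: *Ehhadh*, *Acaa1a*, *Decr2*, *Eci2* and *Pecr*. They were picked out by the symbol of their well, by a rule on enzyme function that uses no measured value, and they are 5 of the 84 genes on a real-time PCR array of fatty acid metabolism. The cells were 3T3-L1 adipocytes, a mouse line grown as fibroblast-like preadipocytes and taken as mature on day 14 of differentiation. In 3 samples they received 500 ng/ml recombinant murine interleukin-15 (rmIL-15) for 24 hours, and 3 samples were left untreated (0 ng/ml). All had been differentiated with insulin, dexamethasone and IBMX, and whether the samples of a group came from separate cultures is not stated. The p-values therefore reflect sample-to-sample spread only, which may be technical. Groups follow the sample titles and the column groups of the tables. One further label of each sample has them swapped, so every direction below depends on the titles.

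Peroxisomes shorten very long-chain and branched fatty acids by a beta oxidation of their own, separate from that of mitochondria. An oxidase takes the first step. The bifunctional enzyme encoded by *Ehhadh* then adds water and oxidizes the product, and the thiolase encoded by *Acaa1a* cleaves off acetyl-CoA. Double bonds of unsaturated fatty acids are dealt with on the side by the dienoyl-CoA reductase *Decr2* and the enoyl-CoA isomerase *Eci2*, whose protein is also found in mitochondria. *Pecr* encodes a trans-enoyl-CoA reductase, which saturates a double bond and is linked to chain elongation rather than to breakdown. In liver, *Ehhadh* and *Acaa1a* are classical targets of the nuclear receptor PPAR alpha.

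The genes lie apart from each other in the RefSeq annotation of GRCm38.p6. *Acaa1a* is on chromosome 9 (119341028 to 119350296), *Ehhadh* on chromosome 16 (21761285 to 21787834), *Decr2* on chromosome 17 (26081208 to 26090322), *Eci2* on chromosome 13 (34977748 to 35027115) and *Pecr* on chromosome 1 (72259172 to 72284321). *Acaa1b* is a close relative of *Acaa1a* on the same chromosome, and *Eci3* is a relative of *Eci2*, also on the same chromosome. Without the primer sequences, whether the wells tell these relatives apart was not tested. The 250 bases before the transcript start that RefSeq gives for *Acaa1a* and for *Ehhadh* are shown because these transcripts varied most of the 5 between samples of a group once set against the *Gapdh* well, though not both in raw Ct. Capitals mark CCAAT boxes (CCAAT) and GC boxes (GGGCGG) on either strand. The windows are chr9:119341044-119341293 on the plus strand and chr16:21787835-21788084 on the minus strand, each written from 5′ to 3′ (RefSeq, GRCm38.p6). The *Acaa1a* window lies inside the span given for the gene above, which begins at an earlier transcript. Of such windows not shown here, that of *Eci2* (chr13:34994145-34994394) also lies inside the span of its gene. That of *Decr2* (chr17:26090165-26090414) overlaps the span of its gene in part.
Acaa1a: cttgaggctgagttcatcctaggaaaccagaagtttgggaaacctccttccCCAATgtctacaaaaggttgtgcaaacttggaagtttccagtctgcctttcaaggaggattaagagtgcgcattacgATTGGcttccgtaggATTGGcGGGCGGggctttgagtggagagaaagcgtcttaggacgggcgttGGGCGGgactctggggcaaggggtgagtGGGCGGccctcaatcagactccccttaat
Ehhadh: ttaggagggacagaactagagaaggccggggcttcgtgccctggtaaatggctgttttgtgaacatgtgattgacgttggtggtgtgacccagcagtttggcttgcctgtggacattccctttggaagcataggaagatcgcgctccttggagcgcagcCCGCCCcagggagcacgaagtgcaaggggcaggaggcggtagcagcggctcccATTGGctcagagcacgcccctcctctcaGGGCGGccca

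The *Acaa1a* window had 3 CCAAT boxes and 3 GC boxes, and the *Ehhadh* window had 1 and 2, and no box overlapped another. A GC box was present in each of the 5 windows, against 32.7% of all 32851 windows of this length in the table, and a CCAAT box in each except that of *Decr2*, against 33.8%. The bases G and C made up 53.6% (*Acaa1a*) to 66.0% (*Decr2*) of these 5 windows, against a median of 52.4% over all windows. Whether GC boxes were more frequent than in windows of like G and C content was not tested. The element to which PPAR binds, a pair of AGGTCA copies with 1 base between them, was in none of the 5 windows and in 0.0335% of all windows. Neither AGGTCA alone, in 14.0% of all windows, nor a TATA box (TATAAA), in 12.4%, was found in the 5 windows on either strand. These are matches of letters in a short window, and nothing follows from them about binding.

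A well is read as its threshold cycle (Ct), which is lower the more RNA there is, by 1 cycle for every 2-fold if each cycle doubles the product. Each gene had 1 well on each plate, and each sample had a plate of its own. Between 71 and 74 of the 84 genes were under the limit of 35 cycles on a plate. All 5 enzymes were well inside it, with no Ct above 29.8. Of the markers on the array, *Fabp4* of adipocytes was at 16.4 to 17.1 cycles, whereas *Fabp1* of liver was above 35 or undetermined in all 6 samples. The median Ct of the genes tested was 25.6, 25.1 and 25.4 on the rmIL-15 plates and 25.1, 25.2 and 25.8 on the untreated plates.

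The raw Ct values put the enzymes in the order *Acaa1a*, *Eci2*, *Decr2*, *Pecr* and *Ehhadh*, from lowest to highest. *Acaa1a* had a raw Ct of 23.8, 23.1 and 23.5 cycles with rmIL-15, and of 23.0, 23.4 and 24.8 without. *Eci2* had a raw Ct of 24.9, 23.9 and 24.4 with rmIL-15, and of 23.9, 24.0 and 24.8 without. *Decr2* was at 25.5, 25.3 and 25.6 with rmIL-15, and at 25.1, 25.2 and 25.6 without. These ranges overlapped between the groups for each gene, and the untreated replicate 3 had the highest *Acaa1a* value of all 6 samples. *Pecr* was at 26.5, 26.1 and 26.2 with rmIL-15, and at 26.3, 26.1 and 26.5 without. *Ehhadh* was at 29.6, 29.7 and 29.5 with rmIL-15, and at 29.8, 29.2 and 29.3 without. On all 6 plates *Ehhadh* had the highest Ct of the 5, at 3.23 ± 0.28 cycles above *Pecr* (SD, n = 6). *Pecr* was above *Decr2* and *Decr2* above *Eci2* on all 6 plates as well, by 0.900 ± 0.176 and 1.05 ± 0.292 cycles (SD, n = 6). The first step of the order was less firm: *Eci2* was above *Acaa1a* on 5 plates, and on the plate of untreated replicate 3 the sign turned, with a difference of -0.021 cycles. Primers differ between wells, so this is an order of Ct and only roughly one of RNA.

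None of the 5 raw Ct values separated the groups. Of all 74 genes tested, 8.11% had raw Ct groups that did not overlap. The largest difference in raw Ct was that of *Acaa1a*, -0.26 cycles for rmIL-15 minus untreated, with an SD of 0.354 cycles among the rmIL-15 samples and of 0.969 among the untreated ones (n = 3 each, exact permutation test, two-sided, p = 0.9). The other differences were 0.17 cycles for *Decr2* (exact permutation test, p = 0.3), 0.16 for *Eci2* (p = 0.7), 0.16 for *Ehhadh* (p = 0.5) and 0.0063 for *Pecr* (p = 0.9). For 3 samples against 3 the smallest p is 0.1.

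To compare levels between samples, the Ct of each gene was subtracted from that of its plate's well annotated *Gapdh*, so that a higher value is a higher level on the log2 scale. That well was at 25.6, 25.2 and 25.5 cycles with rmIL-15, and at 25.2, 25.2 and 26.0 without. Its annotation is open, since the deposited normalized values rest on the well annotated *B2m* although the paper names GAPDH. The wells annotated *B2m*, *Actb*, *Gusb* and *Hsp90ab1* were at 18.3 to 20.5 cycles over the 6 plates. Which gene the well annotated *Gapdh* measures was not tested. For this reason raw Ct values and ratios free of a reference stand beside these levels. *Acaa1a* had levels of 1.79, 2.03 and 2.02 with rmIL-15, and of 2.22, 1.82 and 1.12 in untreated adipocytes. The treated levels lay close together and inside the range of the untreated ones. *Ehhadh*, the bifunctional enzyme, had levels of -3.96, -4.56 and -3.95 with rmIL-15, and of -4.54, -3.99 and -3.37 without. Here too the untreated samples were spread more widely, with the highest level in untreated replicate 3, the sample with the lowest *Acaa1a*. *Decr2* had levels of 0.10, -0.12 and -0.067 with rmIL-15, and of 0.15, -0.057 and 0.41 without. *Eci2* had levels of 0.74, 1.23 and 1.11 with rmIL-15, and of 1.33, 1.18 and 1.14 without. For both genes 1 treated sample was inside the untreated range and 2 were below it. *Pecr* had levels of -0.87, -0.98 and -0.69 with rmIL-15, and of -1.01, -0.91 and -0.51 without, so that all treated samples lay inside the untreated range. The groups overlapped for all 5 genes, whereas 17.6% of the 74 genes tested had groups that did not overlap.

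**Figure D1:**
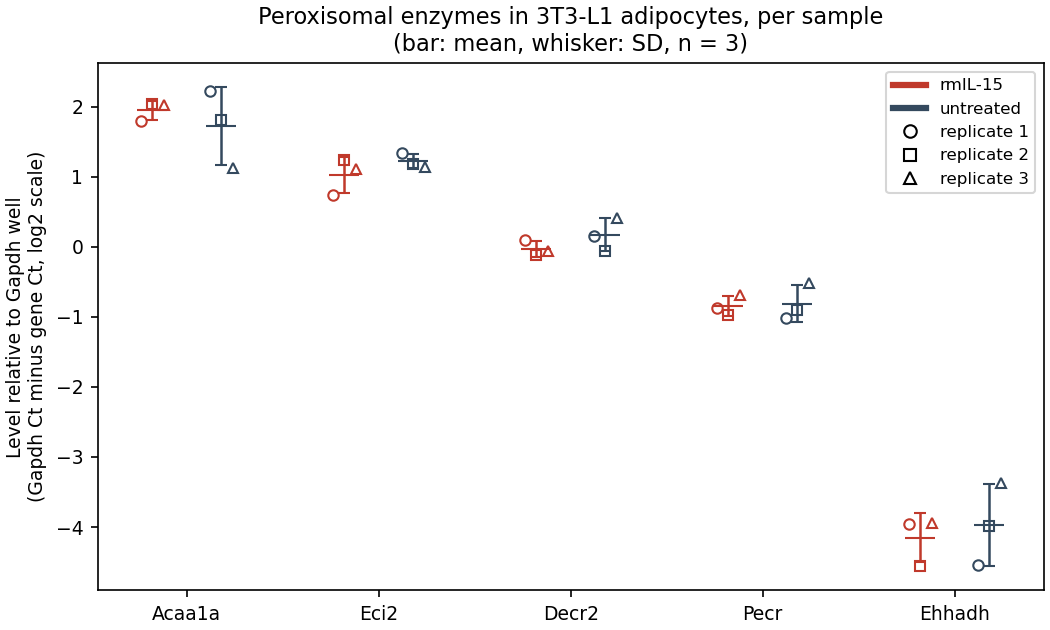
Level of each enzyme relative to the well annotated Gapdh (Gapdh Ct minus gene Ct, log2 scale) in the 3 rmIL-15 samples (red) and the 3 untreated samples (dark grey). Symbols are samples, bars are means and whiskers are SDs, and the groups overlap for all 5 genes.

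After 24 hours of rmIL-15 no significant difference was detected in any of the 5 transcripts. *Acaa1a*, the thiolase, was higher in sign, its log2 fold change being 0.23 (standard error 0.29, 95% interval -0.49 to 0.95, adjusted p = 0.82 by limma). The other 4 were lower in sign. *Decr2* was at -0.20 (standard error 0.16, 95% interval -0.58 to 0.19, adjusted p = 0.69 by limma). *Eci2* was at -0.19 (standard error 0.16, 95% interval -0.59 to 0.21, adjusted p = 0.69 by limma). These reductase and isomerase values lay close together, and that of *Ehhadh* lay as close to them, at -0.19. The interval of *Ehhadh* was the widest of the 5, -1.03 to 0.66 (standard error 0.34, adjusted p = 0.87 by limma). *Pecr* was at -0.036 (standard error 0.17, 95% interval -0.46 to 0.39, adjusted p = 0.95 by limma). As ratios of treated to untreated level, the intervals reach from 0.667 to 1.14 for *Decr2*, from 0.665 to 1.15 for *Eci2* and from 0.727 to 1.31 for *Pecr*. They reach from 0.712 to 1.93 for *Acaa1a* and from 0.490 to 1.57 for *Ehhadh*, the widest of the 5 with *Gapdh* as reference. The place of *Ehhadh* depended on the reference. With *B2m* the largest standard error of the 5 was that of *Acaa1a*, 0.369, against 0.286 for *Ehhadh* and 0.229 for *Eci2*. With *Actb* it was again that of *Acaa1a*, 0.387, against 0.286 for *Eci2* and 0.255 for *Ehhadh*.

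None of the 5 passed an adjusted p under 0.05 by limma, and neither did any of the 74 genes (0%). None passed an unadjusted p under 0.05, the threshold of the paper, against 7 of the 74 genes (9.46%). The counts of members were also 0 by the methods' t-test. The median log2 fold change of the 5 was -0.19, and that of all 74 genes was -0.11, of which 53 were lower in sign. Signs of such small values turned with the reference and with single samples. Without untreated replicate 3, *Acaa1a* was at -0.070, *Ehhadh* at 0.11 and *Pecr* at 0.11, and without rmIL-15 replicate 2 *Ehhadh* was at 0.015 and *Pecr* at 0.031. With *Hsp90ab1* as reference the median of all genes was -0.46, with 66 of 74 lower in sign, and *Acaa1a* at -0.12 stayed above that median. With *Gusb* the median was -0.0077, with 38 of 74 lower in sign, and *Pecr* was at 0.068.

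**Figure D2:**
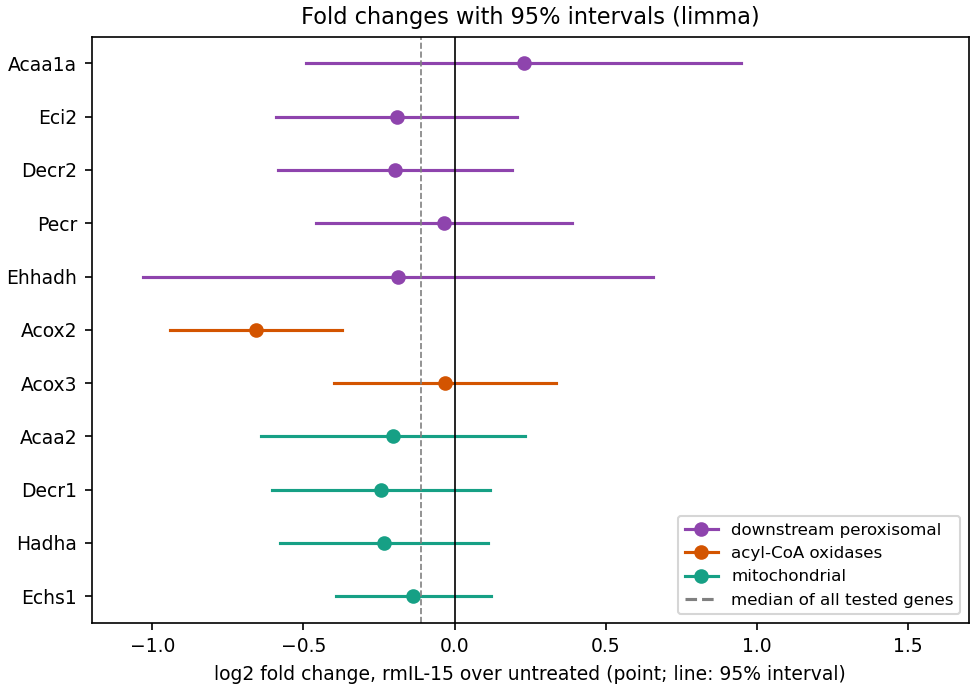
Log2 fold change of rmIL-15 over untreated (points) with 95% intervals from limma (lines) for the 5 downstream enzymes, 2 acyl-CoA oxidases and 4 mitochondrial enzymes; the dashed line is the median of all 74 genes, -0.11. Of the genes drawn, only the interval of Acox2 leaves out 0.

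Spread between samples of a group differed among the 5. *Ehhadh* and *Acaa1a* had pooled SDs of 0.482 and 0.405 on the log2 scale, 2.18 and 1.83 times the median of 0.221 over the 74 genes. Those of *Pecr*, *Eci2* and *Decr2* were 0.212, 0.193 and 0.185, all below the median. This order belongs to the levels set against *Gapdh*. In raw Ct the SD over the 6 samples was 0.668 cycles for *Acaa1a*, 0.448 for *Eci2* and 0.235 for *Ehhadh*, so that *Ehhadh* varied less than *Eci2*. On the *Gapdh* scale *Ehhadh* and *Acaa1a* deviated in opposite directions in the samples where they deviated most. In untreated replicate 3 *Ehhadh* was 0.69 above its mean over the 6 samples and *Acaa1a* 0.71 below its own, at -0.71. In untreated replicate 1 *Acaa1a* was 0.39 above and *Ehhadh* at -0.48, and in rmIL-15 replicate 2 they were at 0.20 and -0.50. In raw Ct of untreated replicate 3, *Acaa1a* was 1.23 cycles above its mean and *Ehhadh* was at -0.17 cycles from its own, so most of the distance between them there lay in *Acaa1a*. A ratio of wells of the same plate needs no reference gene. The log2 ratio of *Ehhadh* to *Acaa1a* was -5.75, -6.59 and -5.97 with rmIL-15, and -6.77, -5.80 and -4.50 without. Across the 6 plates this ratio ranged over 2.27 on the log2 scale, or 4.82-fold. Within the untreated group alone its SD was 1.14, against 0.437 with rmIL-15 (n = 3 each). By contrast, the ratio of *Decr2* to *Pecr* ranged over 0.54, or 1.45-fold. These are the widest and the narrowest range of all pairs among the 5 enzymes. The other pairs lay between 1.635-fold (*Decr2* to *Eci2*) and 3.028-fold (*Acaa1a* to *Pecr*). The plate of untreated replicate 3 also had the highest median Ct of the 6, and the part of this in its *Acaa1a* and *Ehhadh* values was not tested.

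**Figure D3:**
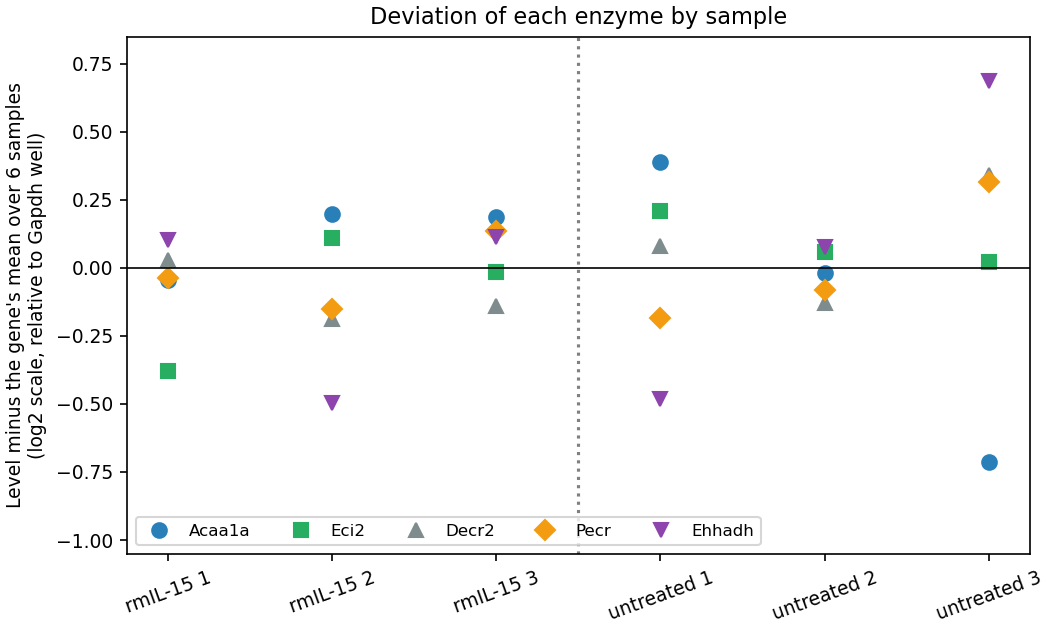
Level of each enzyme minus its own mean over the 6 samples (log2 scale, relative to the well annotated Gapdh), with the rmIL-15 samples left of the dotted line and the untreated samples right of it. In untreated replicate 3 Ehhadh stands at 0.69 and Acaa1a at -0.71, and in untreated replicate 1 they stand at -0.48 and 0.39.

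Likeness of pattern was measured as the SD over the 6 plates of the Ct difference between wells, so that a low SD means that transcripts kept a constant ratio. *Decr2* was nearest to *Acadsb*, the mitochondrial short/branched-chain acyl-CoA dehydrogenase, with an SD of 0.054 cycles, and then to *Mcee*, methylmalonyl-CoA epimerase, with 0.094. *Eci2* was nearest to *Cpt2*, carnitine palmitoyltransferase of the inner mitochondrial membrane (0.066 cycles), and then to *Fabp5* (0.084). *Acaa1a* was nearest to *Acads*, the short-chain acyl-CoA dehydrogenase (0.091), and then to *Acad10* (0.16). *Pecr* was nearest to *Crot*, the peroxisomal carnitine octanoyltransferase (0.12), and then to *Fabp4* (0.13). *Ehhadh* was nearest to *Acat1*, the mitochondrial acetoacetyl-CoA thiolase, and to *Acsm5*, a medium-chain acyl-CoA synthetase (0.16 and 0.17). Over the 73 other genes the median of this SD was 0.288 for *Decr2*, 0.286 for *Eci2* and 0.294 for *Pecr*, and 0.471 for *Acaa1a* and 0.480 for *Ehhadh*. None of these neighbours is another of the 5 enzymes. The points share the plates and the amount of RNA on them, and these SDs are a description over 6 samples.

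Acyl-CoA oxidases take the step before, and *Acox2* and *Acox3* were compared. Products of branched-chain oxidation are known to pass mainly to the D-bifunctional protein and the sterol carrier protein thiolase rather than to the enzymes of *Ehhadh* and *Acaa1a*. *Acox2*, which acts on branched chains and bile acid intermediates, had a log2 fold change of -0.66 (limma, standard error 0.11, adjusted p = 0.11), with the smallest unadjusted p of the 74 genes. *Acox3* was at -0.033 (standard error 0.15, adjusted p = 0.95 by limma). Whether the downstream enzymes differed from these oxidases was tested on within-plate ratios, in a family of 18 ratios that also holds those to mitochondrial enzymes, of which 13 are reported. Relative to *Acox3*, none of the 5 enzymes had groups that did not overlap, against 6.85% of the other genes tested. The log2 ratio of *Acaa1a* to *Acox3* had the largest of these differences, at 5.56 ± 0.25 with rmIL-15 and 5.30 ± 0.43 without (SD, n = 3 each, exact permutation test, p = 0.4, adjusted p = 0.90).

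Relative to *Acox2*, all 5 ratios were higher in sign with rmIL-15, and 4 of the 5 had groups that did not overlap, against 67.1% of the other 73 genes. The 5 ratios share the *Acox2* wells, and the share of members is near that background. The log2 ratio of *Acaa1a* to *Acox2* was 4.90, 4.99 and 5.21 with rmIL-15, and 4.58, 4.33 and 3.55 without, a difference of 0.89 (p = 0.1 by exact permutation, adjusted p = 0.36), or of 0.58 without untreated replicate 3. That of *Pecr* was 2.24, 1.98 and 2.50 with rmIL-15, and 1.34, 1.60 and 1.91 without, a difference of 0.62 with the same p. All treated values were above all untreated ones for both. For *Eci2* and *Decr2* the differences were 0.47 and 0.46, again with exact p = 0.1 and adjusted p = 0.36. The groups of *Decr2* were separated by less than 0.01, with 2.842 as the lowest treated and 2.840 as the highest untreated ratio. The ratio of *Ehhadh* to *Acox2* overlapped between the groups, at -0.85, -1.60 and -0.76 with rmIL-15 and -2.19, -1.48 and -0.95 without (exact permutation test, p = 0.4, adjusted p = 0.90).

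Mitochondria use separate genes for the same reactions, and 3 of the 5 enzymes have such a counterpart on the array. The peroxisomal and the mitochondrial thiolase had opposite signs, *Acaa2* having a log2 fold change of -0.20 (limma, standard error 0.18, adjusted p = 0.69). The log2 ratio of *Acaa1a* to *Acaa2* was 0.157, 0.163 and 0.139 with rmIL-15, and -0.076, -0.13 and -0.63 in untreated adipocytes. The treated ratios lay within 0.03 of each other and above all untreated ones, a difference of 0.43, or 1.35-fold. In an exact permutation test this has p = 0.1, the smallest possible, and an adjusted p = 0.36 over the 18 ratios, so it did not pass. Of the other 73 genes, 11.0% had a ratio to *Acaa2* whose groups did not overlap. Without untreated replicate 3 the difference was 0.26. The ratio of *Decr2* to its mitochondrial counterpart *Decr1* was -2.46 ± 0.29 with rmIL-15 and -2.50 ± 0.25 without (SD, n = 3 each, exact permutation test, p = 0.7, adjusted p = 0.97). That of *Ehhadh* to *Hadha*, which encodes part of the trifunctional protein of mitochondria, was -6.97 ± 0.36 with rmIL-15 and -7.02 ± 0.48 without (SD, n = 3 each, exact permutation test, p = 1.0, adjusted p = 1.0).

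**Figure D4:**
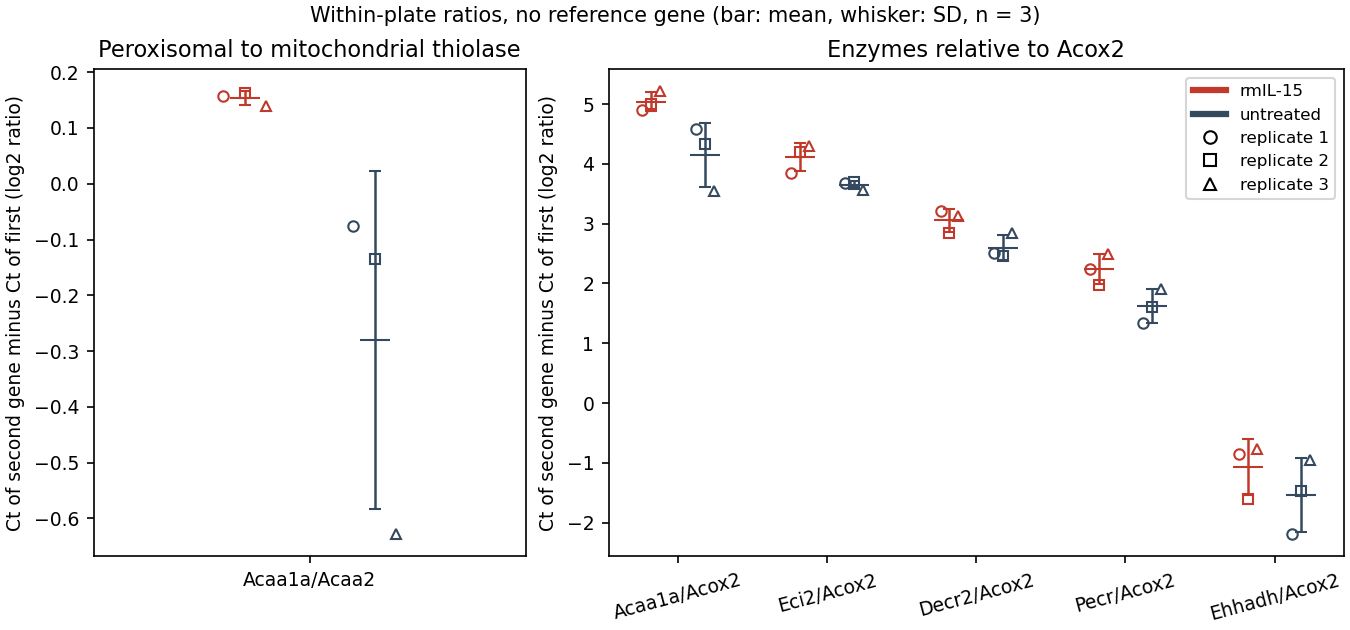
Within-plate log2 ratios (Ct of the second gene minus Ct of the first) of Acaa1a to Acaa2 (left) and of the 5 enzymes to Acox2 (right), for the 3 rmIL-15 samples (red) and the 3 untreated samples (dark grey), with means (bars) and SDs (whiskers). The treated ratios of Acaa1a to Acaa2 lie between 0.139 and 0.163, above the untreated ones, and relative to Acox2 the groups overlap only for Ehhadh.

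Other genes of the peroxisomal and mitochondrial routes were set beside the 5 enzymes. Of 4 mitochondrial enzymes on the array, *Acaa2*, *Decr1*, *Hadha* and the enoyl-CoA hydratase *Echs1*, all were lower in sign, between -0.24 and -0.14 on the log2 scale, and none passed an unadjusted p under 0.05 by limma. Of 4 other peroxisomal genes, the carnitine octanoyltransferase *Crot* and the thioesterases *Acot3*, *Acot6* and *Acot8*, all were lower in sign as well and none passed. Of all 74 genes 53 were lower in sign and 9.46% passed, so signs of this kind were common. With *Gusb* as reference, where 38 of the 74 were lower in sign, the 4 mitochondrial enzymes stayed lower in sign, whereas 2 of the other peroxisomal genes, *Crot* and *Acot3*, were higher in sign. In the alternatives at most 1 of these 4 peroxisomal genes passed, for example with *Actb* as reference. *Crot*, which hands shortened acyl groups on for export, was at -0.035 (standard error 0.12, adjusted p = 0.95 by limma), and *Acot6* had the smallest unadjusted p, at -0.71 (standard error 0.40, adjusted p = 0.60 by limma). *Acot3* had a standard error of 0.97, and its value of -0.075 became 1.07 without rmIL-15 replicate 2.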

How the data were processed

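SYBR green real-time PCR arrays of 96 wells were run on 400 ng of RNA for each of 6 samples. Deposited were raw Ct values, in cycles and not normalized, and values the authors normalized, which are log2 values that run downwards with more RNA. Each of these equals the Ct, held at 35 or less, minus the Ct of the *B2m* well (largest deviation 3.6e-15 cycles), and they served as an alternative. The authors' table of fold changes was not used, nor were 6 columns of linear per-sample values. Amplification efficiency was not stated, and doubling was assumed.

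Undetermined wells and those over 35 cycles were held at 35. Each Ct was subtracted from that of the well annotated *Gapdh*, the gene that the paper names as its reference. Whether this well is the one the authors used is open, since their values rest on the well annotated *B2m*. A gene was tested if a whole group had it under 35 cycles, which left 74 genes for limma 3.58.1 in R 4.3.3, with Benjamini-Hochberg adjustment over all 74. The fit was tested on simulated data. Raw Ct and 18 within-plate ratios were compared with exact two-sided permutation tests, adjusted over the 18 ratios. Results on 1 item are not reported here. Named were the 5 enzymes, 2 oxidases, mitochondrial counterparts and other peroxisomal genes of the array, and the 2 genes most alike to each enzyme. The rule for the members uses no measured value, but members and lists were proposed with earlier results of these data known. Alternatives were other references, limits, filters and tests, a block on replicate number, and omission of each sample in turn. RefSeq identifiers of all 5 wells matched GRCm38.p6, and promoter windows are from RefSeq. Plots used Python 3.11.15 with matplotlib 3.10.9.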

Additional observations from a re-analysis of the deposited data

How the results depend on the processing

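No enzyme passed an adjusted or unadjusted p under 0.05 in any of 18 alternative fits. *Decr2* and *Eci2* were lower in sign in all of them, at -0.54 to -0.076 and -0.54 to -0.049. *Acaa1a* turned to -0.12 with *Hsp90ab1* as reference and *Pecr* to 0.068 with *Gusb*. When 1 sample was left out, log2 fold changes ranged from -0.47 to 0.11 for *Ehhadh*, -0.070 to 0.48 for *Acaa1a* and -0.14 to 0.11 for *Pecr*, and between 2 and 4 of the 5 were lower in sign. Of the 74 genes, 7 passed an unadjusted p under 0.05, 3 with *B2m*, 2 with *Hsp90ab1*, 4 with the replicate block and 4 to 7 when 1 sample was left out. Replicate numbers showed no sign of pairing. Deviations of same-numbered samples from their group means correlated across genes at -0.27, 0.092 and -0.28, and none of the 3 correlated best with its own number. Deviations from the mean of 3 samples depend on each other, so this cannot show that the samples were unpaired.

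Within-plate log2 ratios (rmIL-15 minus untreated) changed sign when 1 sample was left out for *Ehhadh* to *Hadha* (-0.21 to 0.26), *Ehhadh* to *Acox3* (-0.48 to 0.22), *Decr2* to *Decr1* (-0.12 to 0.19), *Decr2* to *Acox3* (-0.32 to 0.035) and *Pecr* to *Acox3* (-0.18 to 0.22). Raw Ct differences did so for *Acaa1a* (-0.62 to 0.29 cycles), *Eci2* (-0.076 to 0.45) and *Pecr* (-0.099 to 0.11). The ratio of *Acaa1a* to *Acaa2* (0.26 to 0.53) and those to *Acox2* did not. Each value comes from 1 well per sample, so well error and sample spread cannot be told apart, and 3 samples against 3 cannot reach an exact p under 0.1.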
